A study of Homo sapiens with 46 samples.

Results

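Genes with a ZNF symbol were examined across 4 cell types and 4 subcellular fractions. The members were all ZNF genes, pseudogenes left out, that were present in the transcript assembly of every cell type and whose counts, summed over isoforms, averaged 200 or more over the 12 libraries of the undifferentiated cells. There were 162 such genes among 321 ZNF symbols held by all 4 tables, and 10701 Ensembl genes were held by all 4 tables. The members were thus chosen by their measured level in undifferentiated cells, and that level is given below as a description. The study sequenced RNA from cytoplasm, nucleus, nucleoplasm (the soluble part of a lysed nucleus) and chromatin (the insoluble pellet) of the established pluripotent line H1, called hPSC here (human pluripotent stem cells). The same fractions were taken from cultures that had been directed from H1 to ectoderm, to endoderm or to mesoderm. Endoderm cells were grown with WNT3A and Activin A, mesoderm cells with VEGF, BMP4 and bFGF and with Activin A at first, and ectoderm cells with the inhibitors A83-01, PNU-74654 and Dorsomorphin, and the differentiated cells were collected after 5 days. The protocols name α-amanitin, a blocker of RNA polymerase II, in the lysis buffers. The series' design text also speaks of treatment with actinomycin D, another blocker of transcription, which no sample's labels record, so that whether these cells received it is not known here. The 46 libraries formed 16 groups of 3, except that mesoderm nucleoplasm had 1 library. All groups derive from 1 cell line, and the labels do not say whether the 3 libraries of a group came from separate cultures, so a p-value measures the spread between these libraries, which may be technical.

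C2H2 zinc finger proteins bind DNA, and some bind RNA, through short loops that hold a zinc ion between a pair of cysteines and a pair of histidines. The largest branch carries a KRAB box, which recruits TRIM28 (KAP1) and through it the histone methyltransferase SETDB1, and many of its members are known to silence transposable elements or to protect imprints in pluripotent cells. Most KRAB genes lie in clusters of recent duplicates on chromosome 19. Other ZNF proteins work in chromatin complexes, activate promoters, or act on ribosomes, RNA and the spindle, and a few carry the symbol without a C2H2 array, such as ZNF185, a LIM domain protein of the actin cytoskeleton.

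A member was counted as a KRAB gene if a GENCODE 29 protein of it matched 10 or more of 14 fixed places of the KRAB core. Of the 162 members, 83 passed this cut, and the 79 that did not are called members without a KRAB box. Members just under the cut, such as ZNF286A with 9 places and ZNF263, ZNF496 and ZNF852 with 8, are among the 79. That class may therefore hold genes with a less typical KRAB box. There were 61 members on chromosome 19, and 50 of these were KRAB genes. The number of canonical C2H2 fingers ran from 0 in 4 members (ZNF738, ZNF185, ZNF330 and ZNF839) to 34 in ZNF462, with a median of 10. A script split each member's longest GENCODE transcript into overlapping windows of 31 bases and looked for the same window in any other gene. The median share of windows held by another gene was 5.9% for KRAB members and 0.346% for the others, and the share was over 10% in 32 KRAB members and 13 others. It was over 50% in 4 members: ZNF320 with 99.5%, mostly ZNF468, ZNF410 with 87.1%, ZNF286A with 76.9% and ZNF417 with 54.2%, mostly ZNF587. Exons of 39 members also overlapped another annotated gene over more than 10% of their bases, 24 of them on the opposite strand, among them ZNF276 with FANCA, ZNF770, ZNF219, ZNF135 and ZNF384. Whether the counting used strand is not given in the sources used here, so values of these members and of the near-identical pairs are less certain.

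The first canonical finger of 5 chromosome 19 members is shown as an example of how far such genes differ over the length of a short read. The coordinates are GENCODE 29 on GRCh38, and the codons of the zinc-binding cysteines and histidines are in capitals. ZNF417 (chr19:57909930-57909998, minus strand, exon 3) and ZNF587 (chr19:57858692-57858760, plus strand, exon 3) lie beside each other, ZNF320 is at chr19:52881571-52881639 (minus strand, exon 8), ZNF93 at chr19:19933478-19933546 (plus strand, exon 4) and ZNF43 at chr19:21809443-21809511 (minus strand, exon 4). All are coding sequence.
ZNF417: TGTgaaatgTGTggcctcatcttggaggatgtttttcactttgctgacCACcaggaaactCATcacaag
ZNF587: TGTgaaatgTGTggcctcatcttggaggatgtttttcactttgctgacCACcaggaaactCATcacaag
ZNF320: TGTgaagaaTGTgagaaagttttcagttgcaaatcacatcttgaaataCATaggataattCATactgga
ZNF93: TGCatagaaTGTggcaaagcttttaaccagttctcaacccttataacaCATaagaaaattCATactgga
ZNF43: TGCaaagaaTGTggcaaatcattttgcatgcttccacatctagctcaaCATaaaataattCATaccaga
Over these 69 bases ZNF417 and ZNF587 did not differ, so a read from inside this finger cannot be given to 1 of them. ZNF93 and ZNF43, which sit in the same family of primate KRAB genes, differed at 23 bases. ZNF320 differed from ZNF93 at 23 bases and from ZNF43 at 26. The other 6 of the 10 pairs, those of ZNF417 or ZNF587 with ZNF320, ZNF93 or ZNF43, differed at 37 to 41 bases (40.6% to 46.4% identity).

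RefSeq promoter windows of GRCh38.p14, running from 250 bases before to 50 after the gene start, matched 139 of the 162 members. Letters were searched only in the 250 bases before the start. Each member was counted with 1 promoter, while the 35116 promoters of all genes were not reduced to 1 per gene. The ETS letters CCGGAAG, searched on both strands, were present in these bases in 23.7% of the members and 8.52% of all 35116 promoters. The ZNF143 motif was present in 5.76% and 0.934%, the GC box GGGCGG in 60.4% and 42.6%, CCAAT in 38.8% and 32%, and the TATA letters TATAAA in 3.6% and 10.7%. The E box CACGTG stood at 6.47% and 6.34%, the cyclic AMP element TGACGTCA at 5.04% and 1.65%, and the NRF1 motif at 0.719% and 1.03%. These are matches of letters in a window and were not tested. The 250 bases upstream of 3 members are shown as examples that hold matches, chosen after the matches were seen: ZNF93 (chr19:19900696-19900945, plus strand) and ZNF43 (chr19:21836183-21836432, minus strand), both on chromosome 19, and ZNF646 (chr16:31074172-31074421, plus strand). Matches to the searched letters are in capitals.
ZNF93: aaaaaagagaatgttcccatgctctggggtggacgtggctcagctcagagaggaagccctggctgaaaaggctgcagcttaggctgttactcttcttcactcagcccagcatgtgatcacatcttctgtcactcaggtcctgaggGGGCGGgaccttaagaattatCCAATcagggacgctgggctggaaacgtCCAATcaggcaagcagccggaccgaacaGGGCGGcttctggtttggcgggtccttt
ZNF43: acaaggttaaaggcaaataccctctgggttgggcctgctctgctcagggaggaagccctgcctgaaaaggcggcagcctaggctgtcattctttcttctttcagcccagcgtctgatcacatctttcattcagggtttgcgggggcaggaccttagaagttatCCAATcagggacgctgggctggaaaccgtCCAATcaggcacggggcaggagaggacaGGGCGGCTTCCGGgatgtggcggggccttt
ZNF646: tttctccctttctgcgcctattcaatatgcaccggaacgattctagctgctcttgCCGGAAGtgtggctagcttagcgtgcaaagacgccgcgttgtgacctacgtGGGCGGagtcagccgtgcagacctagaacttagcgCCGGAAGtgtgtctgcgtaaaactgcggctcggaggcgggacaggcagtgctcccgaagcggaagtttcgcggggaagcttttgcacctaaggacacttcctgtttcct
The window of ZNF93 holds 2 CCAAT matches and 2 GC boxes, that of ZNF43 holds 2 CCAAT matches, 1 ETS match and 1 GC box, and that of ZNF646 holds 2 ETS matches and 1 GC box. Of 5 other members named below whose upstream bases were searched in the same way, ZNF146, ZNF614, ZNF629 and ZNF692 had 0 matches and ZNF644 had 1, to CCAAT.

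Total counts per library ran from 4990408 to 21298678. The libraries were checked against genes of known place. In mesoderm all 9 cytoplasmic controls were called higher in cytoplasm than in nucleus and 3 of 4 nuclear RNAs lower, while in ectoderm 5 of 5 nuclear RNAs were called higher in the libraries labelled cytoplasm and 6 of 9 cytoplasmic controls lower. Cytoplasmic controls were split in hPSC (6 higher, 3 lower) and endoderm (4 and 3), and so were the 4 nuclear RNAs, with 2 higher and 1 lower in hPSC cytoplasm and 1 higher and 2 lower in endoderm cytoplasm. The mitochondrial share of counts was also higher in the nucleus libraries than in the cytoplasm libraries in hPSC (13.1% to 15.3% against 0.399% to 0.615%), ectoderm (8.15% to 10.2% against 0.936% to 1.58%) and endoderm (8.09% to 16.1% against 0.423% to 0.46%), and lower in mesoderm (1.11% to 1.36% against 5.84% to 7.46%). Fraction names below are therefore those of the labels, and the part of this in the results was not tested. Of the ectoderm markers, PAX6 stood at 187 to 215 CPM of the library total in ectoderm cytoplasm, OTX2 at 160.0 to 178 CPM, SIX3 at 170.0 to 215 CPM and LHX2 at 137 to 151 CPM, with SOX1 not listed and ZIC1 near 0. The neural crest marker SOX10 was at 26.7 to 30.4 CPM there and FOXD3 was not listed. In endoderm SOX17 stood at 142 to 189 CPM and POU5F1 at 1540.0 to 2000.0 CPM. The other endoderm markers on the list (FOXA2, CXCR4, GATA6, GATA4 and EOMES) and the hPSC level of POU5F1 are not given here. SOX17 alone does not settle the make-up of the endoderm cultures. Mesoderm cytoplasm held HAND1 at 127 to 136 CPM and POU5F1 at 808 to 935 CPM, whereas TBXT was at 0.117 to 0.148 CPM, and MIXL1, MESP1, KDR and FOXF1 were not listed. Of 4 amnion or trophoblast markers, GATA3 (115 to 132 CPM), TFAP2A (152 to 178 CPM) and ISL1 (52.3 to 61.2 CPM) were present in mesoderm cytoplasm and not listed in hPSC, while KRT7 was at 25.1 to 31.2 CPM in mesoderm and 24.1 to 31.2 CPM in hPSC. GATA3 was at 122 to 154 CPM in endoderm.

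By the mean count that chose the members, ZNF532, a partner of the acetyl-lysine reader ZMYND8, was first with 4645.67, followed by ZNF207, a spindle and kinetochore protein, with 3163.33, ZNF589 with 2310.42, ZNF219 with 1964.00 and ZNF770 with 1852.33. The last members inside the mean of 200 were ZNF587 with 201.33, ZNF695 with 200.83 and ZNF394 with 200.25, and the first outside were ZNF607 with 197.25, ZNF428 with 196.92 and ZNF830 with 195.67. Counts grow with transcript length, so this order is not one of molecules. The 162 members together took a small part of each library, and that part was larger in chromatin than in the other fractions of the same cell type. In ectoderm the share was 1.19% to 1.25% in chromatin, 0.903% to 0.979% in nucleoplasm, 0.781% to 0.916% in cytoplasm and 0.493% to 0.683% in nucleus. Chromatin held 0.835% to 0.904% in hPSC, 0.868% to 0.881% in endoderm and 0.859% to 0.936% in mesoderm. The lowest shares were in endoderm nucleus, at 0.294% to 0.461%, where the mitochondrial share was 8.09% to 16.1%. Fewer copies per cell and a different make-up of the rest of the library cannot be told apart in such shares.

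In undifferentiated hPSC members were called in both directions between the libraries labelled cytoplasm and nucleus, whose control genes were split. Of the 162 members, 42 were higher and 34 lower in cytoplasm than in nucleus by edgeR's quasi-likelihood test at an adjusted p under 0.05. Among all genes 65.7% were called, with 35.6% higher and 30.1% lower. The members' median log2 change was 0.14 and that of all genes 0.11. Scaling to total counts moved the split to 54 and 20 and the authors' TPM to 15 and 50, where the members' median and that of all genes were 0.27 and 0.23, and -0.18 and -0.19. ZNF644, a partner of the H3K9 methyltransferases EHMT1 and EHMT2, had the largest rise, with 54.9, 61.6 and 62 CPM (counts scaled to library size by TMM within the cell type) in the cytoplasm libraries and 14, 16.4 and 15.3 CPM in the nucleus libraries (log2 change 1.97, SE 0.46, adjusted p = 0.00185). ZNF146, a protein made almost wholly of zinc fingers, had 141, 155 and 149 CPM in cytoplasm and 49.3, 45.5 and 35.9 in nucleus (log2 change 1.77, SE 0.33, adjusted p = 0.000326). ZNF93, a KRAB protein known to bind LINE-1 elements, had 35.1, 45 and 42 CPM against 17.5, 15.6 and 14.6 (log2 change 1.36, SE 0.27, adjusted p = 0.000566). In each of these the lowest cytoplasm library was above the highest nucleus library. On the other side, ZNF251 was lower in cytoplasm, at 15.2, 15.9 and 15.6 CPM against 33.9, 39.4 and 28.8 (log2 change -1.13, SE 0.16, adjusted p = 3.1e-05). ZNF714 had 20.2, 23.5 and 24.4 CPM against 41.9, 55.1 and 45.5 (log2 change -1.06, SE 0.22, adjusted p = 0.000838). ZNF692 had 31.3, 22.4 and 23 CPM against 48.6, 60.8 and 46.7 (log2 change -1.03, SE 0.21, adjusted p = 0.000623). The libraries of these 3 did not overlap either, and their falls were smaller than the 3 rises.

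In ectoderm the KRAB genes lay further towards the libraries labelled cytoplasm than the other members. Of the 162 members 71 were higher and 39 lower in cytoplasm (all genes called, 53.5%, with 28.8% higher and 24.8% lower). Among the 83 KRAB members 46 were higher and 12 lower, with a median log2 change of 0.47, and among the 79 without the box 25 were higher and 27 lower, with a median of -0.17 (median of all genes 0.03). For the 50 KRAB members on chromosome 19 the counts were 32 and 2. With total counts as the scale the split of all members was 91 and 15 and with TPM 65 and 4, and the median of the KRAB members was above that of the others under each (0.78 and 0.17 with total counts, 0.53 and 0.10 with TPM). The nuclear controls moved the same way as the KRAB members here (5 of 5 higher, log2 changes 0.59 to 3.09), and their part in this was not tested. ZNF33A, a KRAB gene, had 108, 98.4 and 96.9 CPM in cytoplasm against 27.6, 5.8 and 14.7 in nucleus (log2 change 2.72, SE 0.41, adjusted p = 0.000106). ZNF146 had 221, 184 and 194 CPM against 45.6, 16.1 and 39.5 (log2 change 2.58, SE 0.28, adjusted p = 6.55e-06). ZNF644 had 80.2, 55.3 and 64.1 CPM against 17, 6.01 and 12.1 (log2 change 2.56, SE 0.27, adjusted p = 5.87e-06). In all 3 the second nucleus library was the lowest, and every cytoplasm library was above every nucleus library. The largest falls were in 2 members without a KRAB box and 1 with it. ZNF646, with 31 canonical fingers, had 35.9, 52.9 and 42.7 CPM against 88.1, 118 and 98.8 (log2 change -1.22, SE 0.15, adjusted p = 2.11e-05). ZNF687, another partner of ZMYND8, had 62.2, 72.6 and 59 CPM against 103, 158 and 111 (log2 change -0.94, SE 0.15, adjusted p = 0.000165). ZNF282, a KRAB protein first known as a repressor bound to a viral promoter, had 58, 63.1 and 66.3 CPM against 109, 142 and 107 (log2 change -0.93, SE 0.13, adjusted p = 6.54e-05).

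Endoderm held the largest rises of the 4 cell types, up to 3.59 on the log2 scale. Of the 160 members that passed the filter on low counts, 51 were higher and 45 lower in cytoplasm. Among all genes 69.9% were called, with 34.4% higher and 35.6% lower. The 81 KRAB members split 30 to 18 (median 0.28) and the 79 others 21 to 27 (median -0.08). The split moved with the scale: with total counts the median of all genes moved to 0.73 and the split to 94 higher and 10 lower, and with TPM to 65 and 17, so that changes are given relative to the bulk of genes. ZNF644 had 38.8, 47.4 and 33.1 CPM in cytoplasm against 2.17, 4.23 and 3.37 in nucleus (log2 change 3.59, SE 0.22, adjusted p = 3.3e-09). ZNF268, a KRAB gene, had 15.4, 16.4 and 12.7 CPM against 0.87, 2.54 and 1.69 (log2 change 3.11, SE 0.28, adjusted p = 1.35e-07). ZNF770 had 102, 125 and 76 CPM against 11.1, 19.9 and 16.3 (log2 change 2.68, SE 0.24, adjusted p = 1.12e-07). These 3 did not overlap between fractions, by a wide margin. ZNF135 had 0 counts in cytoplasm and is given with the cell types below. ZNF783 had the next largest fall, at 3.34, 4.34 and 5.61 CPM against 25.6, 36.1 and 29.6 (log2 change -2.78, SE 0.21, adjusted p = 2.31e-08). ZNF692 had 14.5, 14.1 and 17.3 CPM against 64.5, 117 and 98.2 (log2 change -2.61, SE 0.20, adjusted p = 2.71e-08). ZNF276, whose exons overlap FANCA on the opposite strand, had 10.4, 9.06 and 12.1 CPM against 44.5, 59.1 and 41.7 (log2 change -2.20, SE 0.18, adjusted p = 6.19e-08). The first nucleus library was the lowest of the 3 for ZNF783 and ZNF692 and still above every cytoplasm library. The endoderm assembly held no listed Ensembl transcript of ZNF644, ZNF783 or ZNF276, so their sums rest on new isoforms alone.

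In mesoderm, the cell type whose control genes lay as their labels say, members with and without a KRAB box were alike in their counts. Of 162 members 47 were higher and 33 lower in cytoplasm (all genes called, 63.4%, with 32.1% higher and 31.2% lower). Of the 83 KRAB members 22 were higher and 15 lower, and of the 79 others 25 and 18. The split turned with the scale, to 35 higher and 47 lower with total counts and to 3 and 119 with TPM, where the median of all genes was -0.83 and that of the members -1.02. ZNF581 had 69.5, 67.9 and 86.5 CPM in cytoplasm against 15.3, 19 and 21.2 in nucleus (log2 change 2.02, SE 0.25, adjusted p = 4.24e-05). ZNF358 had 88.8, 89.9 and 94.7 CPM against 22.4, 19.3 and 26.6 (log2 change 2.00, SE 0.22, adjusted p = 1.89e-05). ZNF880, a KRAB gene, had 32.6, 39.8 and 40.3 CPM against 9.79, 9.28 and 9.91 (log2 change 1.96, SE 0.16, adjusted p = 2.35e-06). Libraries within a fraction lay close together for these genes, and no fraction overlapped the other. ZNF692 had 34.7, 29 and 33.3 CPM against 98.9, 87.7 and 71.4 (log2 change -1.41, SE 0.32, adjusted p = 0.00226). ZNF276 had 11.3, 11.6 and 12.7 CPM against 32.8, 22.9 and 24.6 (log2 change -1.18, SE 0.20, adjusted p = 0.000311). ZNF638, an RNA- and DNA-binding protein that the HUSH silencing complex uses on unintegrated retroviral DNA, had 116, 112 and 112 CPM against 251, 236 and 259 (log2 change -1.13, SE 0.19, adjusted p = 0.000312).

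**Figure D1:**
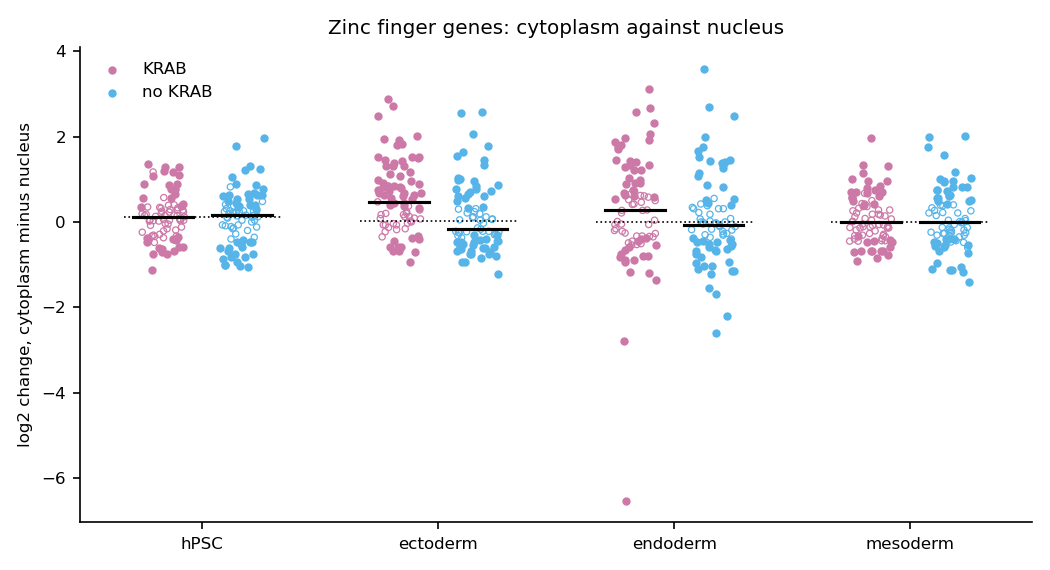
Log2 change between cytoplasm and nucleus (y axis) of each member in each cell type, with KRAB members in pink and the others in blue. Filled points passed an adjusted p of 0.05, thick bars are medians of a class and dotted lines medians of all genes; the KRAB median is above the other class in ectoderm (0.47 against -0.17) and endoderm (0.28 against -0.08).

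Members that lay on the same side in all 4 cell types were few. Of 160 members tested in all 4, 12 were called higher in cytoplasm in every cell type (ZNF146, ZNF614, ZNF253, ZNF616, ZNF766, ZNF93, ZNF706, ZNF664, ZNF644, ZNF770, ZNF286A and ZNF134) and 4 lower (ZNF646, ZNF185, ZNF629 and ZNF517), while 10.4% of all genes tested in all 4 were higher and 13.2% lower in every cell type. A further 35 members were called higher in some cell type and lower in another (17.2% of all genes), and 11 were called in none. Since the ectoderm control genes lay against their labels, the count was also made without ectoderm, a choice made after seeing the data. It gave 17 members higher and 16 lower in cytoplasm in the other 3 cell types (21.6% and 19.5% of all genes). Of the 17, ZNF410 and ZNF627 were called lower in ectoderm, and 0 of the 16 were called higher there. For ZNF146 the log2 changes were 1.77 in hPSC, 2.58 in ectoderm, 1.56 in mesoderm and 2.49 in endoderm. For ZNF614, a KRAB gene, they were 1.09 in hPSC, 1.42 in ectoderm, 1.32 in mesoderm and 2.66 in endoderm. The hPSC value of ZNF614 lost its call without 4 of the 6 libraries in turn (each nucleus library or cytoplasm library 3), with log2 changes of 0.90 to 1.03. ZNF253, ZNF616 and ZNF766 are KRAB genes of chromosome 19. The changes of ZNF253 were 1.28 in hPSC, 1.30 in ectoderm, 0.97 in mesoderm and 2.32 in endoderm. Those of ZNF616 were 1.19 in hPSC, 0.83 in ectoderm, 0.97 in mesoderm and 2.05 in endoderm. Those of ZNF766 were 0.88 in hPSC, 0.83 in ectoderm, 0.79 in mesoderm and 1.34 in endoderm, so each of the 3 had its largest change in endoderm. With TPM the mesoderm values of ZNF253, ZNF616, ZNF766, ZNF93 and ZNF644 turned to the other side of 0 (-0.06, -0.16, -0.30, -0.40 and -0.44, none called), as did those of ZNF770 (-0.69), ZNF286A (-0.31) and ZNF134 (-0.11) and the hPSC values of ZNF286A (-0.06) and ZNF134 (-0.04), while the mesoderm values of ZNF146, ZNF614, ZNF706 and ZNF664 stayed positive without a call. For some of the 12 the call rested on single libraries or on the scale. In hPSC the call of ZNF770 was lost without any 1 library (0.73 to 0.84), that of ZNF134 likewise (0.23 to 0.36) and that of ZNF286A without any 1 library but cytoplasm library 1 (0.26 to 0.35). RLE scaling and DESeq2 also ended the hPSC calls of ZNF134 (0.29 in both) and ZNF286A (0.32 in both), and TPM those of ZNF614, ZNF253, ZNF616, ZNF766, ZNF664 and ZNF770 (0.23 to 0.74). In mesoderm ZNF770 lost its call with total counts (0.31) and without nucleus library 1 or 3 or cytoplasm library 1 or 2 (0.34 to 0.45), ZNF93 without nucleus library 2 or cytoplasm library 3 (0.56 and 0.62) and ZNF644 without nucleus library 1 (0.50).

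Among the 4 members lower in every cell type, ZNF646 had log2 changes of -0.76 in hPSC, -1.22 in ectoderm, -0.67 in mesoderm and -1.54 in endoderm. ZNF185, the LIM domain protein, had -1.02 in hPSC, -0.60 in ectoderm, -1.12 in mesoderm and -0.93 in endoderm. Its libraries did not overlap in any cell type: in hPSC they stood at 22.4, 22.2 and 22.8 CPM in cytoplasm and 46.4, 42.3 and 48.1 CPM in nucleus, and in mesoderm at 41.6, 40.8 and 38.7 and 90.8, 92.6 and 79.9 CPM. ZNF629 had -0.69 in hPSC, -0.76 in ectoderm, -0.55 in mesoderm and -1.10 in endoderm. ZNF517 had -0.64 in hPSC, -0.41 in ectoderm, -0.85 in mesoderm and -1.36 in endoderm, and its ectoderm call was lost without nucleus library 1 or cytoplasm library 1 (log2 change -0.30 and -0.34) and with total counts (log2 change -0.09). Scaling to total counts also ended the ectoderm and endoderm calls of ZNF185 (-0.24 and -0.18) and the hPSC call of ZNF517 (-0.50), all still below 0. ZNF692 fell in hPSC, endoderm and mesoderm, and in ectoderm its libraries overlapped, at 39.4, 41.5 and 41.4 CPM in cytoplasm and 44.4, 33.3 and 40.5 CPM in nucleus.

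**Figure D2:**
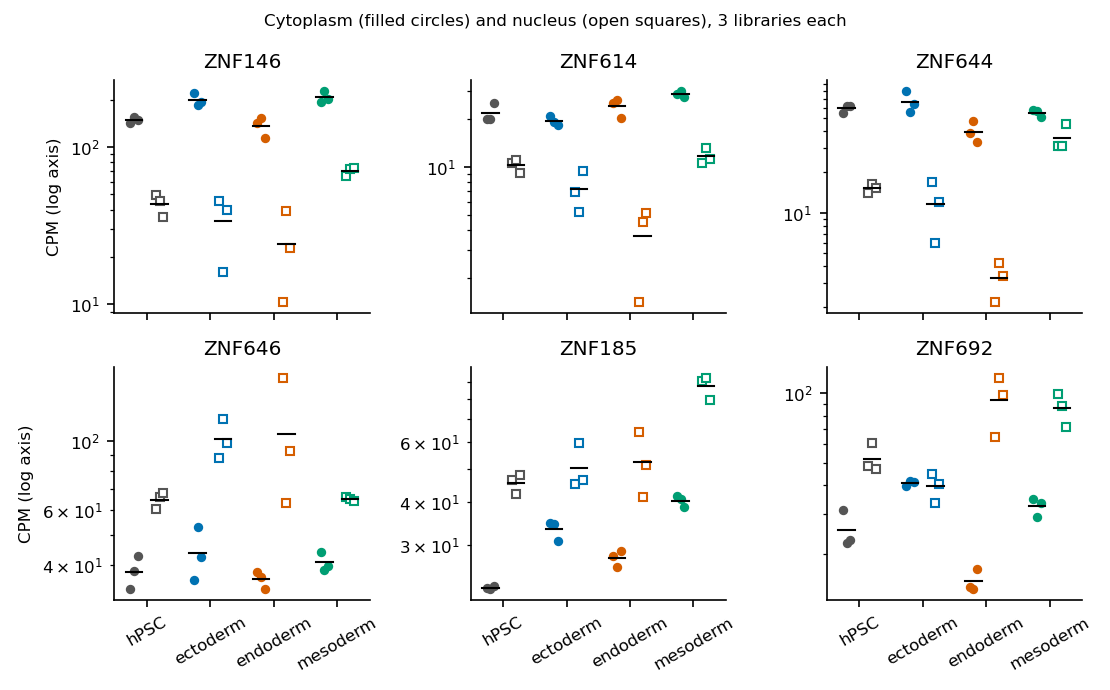
CPM (log axes) of 6 members in the 3 cytoplasm libraries (filled circles) and 3 nucleus libraries (open squares) of each cell type, with bars for means. ZNF146, ZNF614 and ZNF644 lie higher in cytoplasm and ZNF646 and ZNF185 lower in every cell type, while the fractions of ZNF692 overlap in ectoderm only.

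Whether the distribution differed from that in hPSC was tested as an interaction, on the genes held by all 4 tables. The 3 tests share the hPSC libraries. In ectoderm 52 of 162 members had a cytoplasm-to-nucleus change above that in hPSC and 30 below it (51.9% of all genes called), with 32 and 11 of the KRAB members. In endoderm 32 were above and 24 below (38% of all genes), and in mesoderm 15 and 4 (25.6% of all genes). By direction, 27.4% of all genes were above and 24.6% below in ectoderm, 19.7% and 18.3% in endoderm and 18.7% and 6.88% in mesoderm. The mesoderm lean is thus one of all genes and not particular to the members. Total counts as the scale changed these splits to 38 and 23 in ectoderm, 51 and 4 in endoderm and 3 and 13 in mesoderm. Counting only transcripts that all 4 assemblies list, which 117 members had in this fit, moved the ectoderm split from 34 and 26 to 23 and 16, the endoderm split from 27 and 15 to 13 and 5, and the mesoderm split from 13 and 3 to 8 and 5. Without hPSC nucleus library 2 or endoderm cytoplasm library 2 the endoderm count of 56 fell to 37, and without mesoderm cytoplasm library 2 the mesoderm count of 19 fell to 11. In ectoderm ZNF107, a KRAB gene, had 9.69, 6.5 and 7.16 CPM in ectoderm cytoplasm and 2.03, 0.7 and 0.8 in ectoderm nucleus (difference 2.65, SE 0.44, adjusted p = 5.3e-05). The same gene had 7.56, 11.4 and 13.8 CPM in hPSC cytoplasm and 9.12, 10.6 and 8.34 in hPSC nucleus, where the fractions overlapped. ZNF33A had 105, 96.5 and 92.3 CPM in ectoderm cytoplasm and 27.6, 5.33 and 14.7 in ectoderm nucleus, and 15.4, 16.6 and 15.8 CPM in hPSC cytoplasm and 9.62, 14.2 and 12.1 in hPSC nucleus (difference 2.26, SE 0.45, adjusted p = 0.000309). ZNF107 and ZNF33A had no listed transcript shared by all 4 assemblies, so cell type and assembly cannot be told apart for them. ZNF43 had a difference of 2.59 (adjusted p = 0.000764), which turned to -6.11 (adjusted p = 0.102) when only shared transcripts were counted, and for ZNF48 the value of -1.03 became 0.10 (adjusted p = 0.927). ZNF581 moved the other way, with 50.4, 61.5 and 50.9 CPM in ectoderm cytoplasm and 67.6, 102 and 59.6 in ectoderm nucleus, and 53, 54.8 and 53.6 CPM in hPSC cytoplasm and 31, 25.9 and 30.4 in hPSC nucleus (difference -1.38, SE 0.28, adjusted p = 0.000371).

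In endoderm ZNF770 had 116, 141 and 87 CPM in endoderm cytoplasm and 12.6, 24.5 and 20.0 in endoderm nucleus, and 119, 138 and 138 CPM in hPSC cytoplasm and 82.9, 82 and 77.7 in hPSC nucleus (difference 1.88, SE 0.36, adjusted p = 0.000562). Both cell types had more in cytoplasm, and the gap was wider in endoderm, whose nucleus libraries were lower. ZNF813 had 40.8, 32.1 and 26.5 CPM in endoderm cytoplasm and 4.32, 12.8 and 9.75 in endoderm nucleus, and 7.56, 13.8 and 14.1 CPM in hPSC cytoplasm and 14.7, 14.5 and 14.1 in hPSC nucleus (difference 2.15, SE 0.41, adjusted p = 0.000523). ZNF783 had 3.77, 4.87 and 6.42 CPM in endoderm cytoplasm and 29.1, 44.4 and 36.2 in endoderm nucleus, and 27.3, 30.3 and 26.6 CPM in hPSC cytoplasm and 49.6, 61.7 and 48.1 in hPSC nucleus (difference -1.95, SE 0.25, adjusted p = 1.99e-05). It was lower in cytoplasm in both cell types and more so in endoderm. ZNF775 had 0.71, 0.75 and 1.34 CPM in endoderm cytoplasm and 3.33, 3.01 and 3.09 in endoderm nucleus, and 37.2, 35.7 and 31.6 CPM in hPSC cytoplasm and 32.5, 40.9 and 39.8 in hPSC nucleus (difference -1.64, SE 0.28, adjusted p = 0.000229). ZNF783 and ZNF775 had no listed transcript shared by all 4 assemblies, so cell type and assembly cannot be told apart for them. In mesoderm ZNF358 had 80.2, 81.3 and 84.2 CPM in mesoderm cytoplasm and 21.5, 18.3 and 25.5 in mesoderm nucleus, and 36.9, 49.7 and 47.3 CPM in hPSC cytoplasm and 38.1, 24.8 and 31.1 in hPSC nucleus (difference 1.39, SE 0.28, adjusted p = 0.00131). ZNF644, which lay towards the cytoplasm in both, had 51.5, 51.3 and 45.3 CPM in mesoderm cytoplasm and 30.2, 29.6 and 43.4 in mesoderm nucleus, and 52.4, 60.9 and 61.6 CPM in hPSC cytoplasm and 15.4, 17.8 and 16.8 in hPSC nucleus (difference -1.29, SE 0.36, adjusted p = 0.0125). ZNF326, a subunit of the DBIRD complex that links RNA polymerase II to splicing, had 46, 46.9 and 42 CPM in mesoderm cytoplasm and 63.2, 61.2 and 64.4 in mesoderm nucleus, and 33.2, 31.8 and 30.1 CPM in hPSC cytoplasm and 13.9, 18.8 and 12.4 in hPSC nucleus (difference -1.56, SE 0.52, adjusted p = 0.0324). The call of ZNF326 was lost in 8 of 12 fits without 1 library (differences -1.59 to -1.44), and so was that of ZNF638 (difference -1.43) in 9 of 12 (-1.44 to -1.32). On shared transcripts neither was called (-1.41 and -1.09), and ZNF644 had no shared transcript to check.

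Lists of members by known role, chosen with earlier results of these data known, gave the following counts for cytoplasm against nucleus, to be read beside the percentages of all genes above. Of 20 KRAB genes with reported transposon or imprint targets, 11 were members, and 2 higher and 2 lower in hPSC, 7 and 1 in ectoderm, 3 and 4 in mesoderm and 5 and 4 in endoderm were called (2 and 1, 9 and 0, 3 and 5, and 5 and 0 with total counts, in that order). Within this list ZNF93 was higher in cytoplasm in all 4 cell types, and ZNF43 and ZNF268 in ectoderm, endoderm and mesoderm. ZNF43 had log2 changes of 2.49 in ectoderm, 1.76 in endoderm and 0.69 in mesoderm, and ZNF268 1.94, 3.11 and 0.85, the mesoderm values of both turning with TPM (-0.40 and -0.16, not called) and that of ZNF43 losing its call without nucleus library 1 (0.55). ZNF445, which protects imprints, was lower in hPSC (-0.62), endoderm (-0.45) and mesoderm (-0.78), and its endoderm value turned to 0.23 (adjusted p = 0.372) with total counts and lost its call without nucleus library 2 or 3 or cytoplasm library 3. ZNF417 and ZNF587, which silence HERVK elements and share the finger printed above, were both lower in endoderm (-0.80 and -0.90) and mesoderm (-0.59 and -0.71), and ZNF587 was higher in ectoderm (0.61). The calls of ZNF587 were lost without ectoderm cytoplasm library 2 (0.55) and without endoderm nucleus library 2 (-0.64), and total counts ended the endoderm call of both and the hPSC call of ZNF417 (-0.58).

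Of 17 genes of chromatin complexes 14 were members, and 2 higher and 6 lower in hPSC, 4 and 3 in ectoderm, 3 and 6 in mesoderm and 2 and 5 in endoderm were called, which became 4 and 4, 6 and 1, 2 and 8, and 8 and 0 with total counts, so that the balance turned in endoderm. ZNF644 alone in this list was higher in all 4. ZNF318, lower in hPSC (-0.87), endoderm (-1.03) and mesoderm (-1.05), and ZNF827, which recruits NuRD to telomeres, lower in hPSC (-0.82), endoderm (-0.47) and mesoderm (-0.95), were among the rest. In endoderm total counts ended the call of ZNF318 (-0.34, adjusted p = 0.117) and turned ZNF827 to 0.21 (adjusted p = 0.397), and ZNF827 also lost its call there without nucleus library 3 or cytoplasm library 3. Of 11 genes that act on RNA, ribosomes or the spindle 9 were members, and 5 higher and 2 lower in hPSC, 5 and 1 in ectoderm, 2 and 3 in mesoderm and 6 and 1 in endoderm were called (6 and 0, 7 and 1, 2 and 4, and 8 and 1 with total counts). Here ZNF706, a small protein, had log2 changes of 1.31 in hPSC, 0.66 in ectoderm, 1.76 in mesoderm and 1.27 in endoderm. ZNF326 was higher in hPSC (1.24), ectoderm (1.63) and endoderm (1.51) and lower in mesoderm (-0.39), a call lost without mesoderm cytoplasm library 3 (-0.37). ZNF638 was higher in ectoderm (1.55) and endoderm (1.14) and lower in mesoderm. Of 14 activators and developmental regulators 6 were members, and 1 higher and 1 lower in hPSC, 3 and 1 in ectoderm, 0 and 0 in mesoderm and 2 and 1 in endoderm were called (1 and 0, 5 and 0, 0 and 0, and 3 and 0 with total counts), with ZNF281, a regulator of pluripotency genes, higher in ectoderm (0.57) and endoderm (1.44). The genes of the TRIM28 machinery that KRAB proteins recruit, which are not members, had 8 higher and 2 lower of 19 in hPSC, 10 and 8 in ectoderm, 9 and 7 of 18 in endoderm and 3 and 7 of 19 in mesoderm.

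Within the nucleus more members were called towards chromatin than towards nucleoplasm in each of the 3 cell types that could be tested. Mesoderm nucleoplasm had 1 library and was not tested. Of the 9 cytoplasmic controls all 9 were lower in endoderm chromatin, 8 in ectoderm chromatin and 3 in hPSC chromatin, and 0 were higher. Nuclear RNAs were split, with 0 higher and 2 lower of 4 in hPSC, 2 and 1 of 5 in ectoderm and 1 and 1 of 4 in endoderm. Their part in the counts of members was not tested. In hPSC 34 members were higher and 8 lower in chromatin (30.7% of all genes called), in ectoderm 44 and 23 (43.3%) and in endoderm 39 and 15 of 160 (53.7%). Among all genes 17.2% were higher and 13.6% lower in hPSC chromatin, 21.6% and 21.8% in ectoderm and 23.0% and 30.7% in endoderm. The members' medians were 0.13, 0.11 and 0.12 on the log2 scale, against -0.01, -0.02 and -0.12 for all genes. The tilt was steeper under other scales, with 57 and 3, 58 and 5, and 85 and 1 with total counts, and 110 and 0, 105 and 2, and 84 and 1 with TPM, where the median of all genes also rose (0.40 to 0.49 with TPM). With RLE scaling the hPSC split was 29 and 12, and without nucleoplasm library 1, 2 or 3 the hPSC count of 42 fell to 19, 24 and 20. The third hPSC chromatin library stood apart from the other 2 for the hPSC genes named here.

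ZNF598, the ubiquitin ligase that marks collided ribosomes, was higher in chromatin in hPSC, at 93.3, 92.7 and 159 CPM against 44.9, 43.4 and 51.5 in nucleoplasm (log2 change 1.30, SE 0.19, adjusted p = 0.000418). In endoderm it had 132, 132 and 152 CPM against 30.7, 36 and 32.1 (log2 change 2.07, SE 0.15, adjusted p = 5.18e-08), and in ectoderm the log2 change was 0.72 (adjusted p = 0.000555). ZNF76, a paralogue of the promoter activator ZNF143, had 97, 99.1 and 102 CPM against 42.1, 44.6 and 45 in ectoderm (log2 change 1.18, SE 0.11, adjusted p = 7.86e-06). In endoderm the same gene had 55.5, 68.2 and 59 CPM against 13.7, 11.1 and 14.7 (log2 change 2.21, SE 0.17, adjusted p = 6.72e-08), and in hPSC its log2 change was 0.80 (adjusted p = 0.0016). ZNF692 had 139.7, 152 and 141 CPM in ectoderm chromatin against 60.7, 48.7 and 66.2 in nucleoplasm (log2 change 1.30, SE 0.13, adjusted p = 1.1e-05). No chromatin library of these genes overlapped a nucleoplasm library, and in hPSC the third chromatin library was the highest for ZNF598. ZNF276 in endoderm had 96.5, 73.8 and 101 CPM against 19.3, 20.0 and 18.6 (log2 change 2.23, SE 0.18, adjusted p = 1.36e-07), and these counts may hold reads of FANCA if strand was not used. ZNF587B in ectoderm had 35.6, 31.9 and 38.4 CPM against 17.6, 15.5 and 14.7 (log2 change 1.15, SE 0.17, adjusted p = 0.00019). ZNF219, ZNF274 and ZNF384, which bind DNA, were called higher in chromatin in all 3 cell types (ZNF274 0.62, 0.76 and 0.69 in hPSC, ectoderm and endoderm). ZNF274, which recruits SETDB1 to the ends of zinc finger genes, and ZNF202 (0.48, 0.48 and 0.86) are KRAB members, and the hPSC calls of ZNF202 and ZNF384 were lost without chromatin library 3 (0.30 and 0.26) or any 1 nucleoplasm library. The calls of ZNF202 and ZNF384 in ectoderm and of ZNF219 in ectoderm and endoderm were each lost without at least 1 library (0.39 to 0.44, 0.31 to 0.32, 0.38, and 0.62 to 0.64).

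ZNF644, which lay towards the cytoplasm, lay towards the nucleoplasm inside the nucleus. In endoderm it had 29.5, 28.8 and 24.6 CPM in chromatin against 56.3, 50.5 and 49.1 in nucleoplasm (log2 change -0.91, SE 0.19, adjusted p = 0.000759), and in ectoderm the log2 change was -0.90 (adjusted p = 0.0102). In hPSC the chromatin libraries held 61.4, 56 and 8.59 CPM and the nucleoplasm libraries 102, 98.5 and 101 (log2 change -1.26, SE 0.44, adjusted p = 0.0435). The third of those chromatin libraries was far below the other 2, as it was for ZNF721 (79.8, 61.7 and 18.4 CPM against 116, 120.4 and 91.7, log2 change -1.03, SE 0.37, adjusted p = 0.0468) and ZNF326 (34.7, 31.8 and 14.7 CPM against 48.4, 45.3 and 40.1, log2 change -0.72, SE 0.25, adjusted p = 0.0448). These 3 hPSC calls were lost with total counts (-1.10, adjusted p = 0.0644, -0.87, adjusted p = 0.0801 and -0.56, adjusted p = 0.0985) and without any 1 nucleoplasm library, that of ZNF721 also without chromatin library 2 (-1.14) and that of ZNF326 without chromatin library 3 (-0.42). Total counts also ended the ectoderm and endoderm calls of ZNF644 (-0.72, adjusted p = 0.0882 and -0.29, adjusted p = 0.333). ZNF622, which matures the large ribosomal subunit, had 14.3, 17.8 and 13.2 CPM in endoderm chromatin against 37.4, 40.7 and 35.1 in nucleoplasm (log2 change -1.33, SE 0.17, adjusted p = 1.43e-05). ZNF93 in endoderm had 17.8, 15.1 and 18.7 CPM against 33.3, 28.1 and 34.4 (log2 change -0.89, SE 0.20, adjusted p = 0.00175), a call that total counts ended (-0.27, adjusted p = 0.421). In ectoderm ZNF107 had 2.47, 6 and 1.6 CPM against 14.2, 15.8 and 10.8 (log2 change -2.02, SE 0.40, adjusted p = 0.00124). ZNF33A there had 44.8, 71.8 and 32.2 CPM against 123, 168 and 137 (log2 change -1.52, SE 0.37, adjusted p = 0.00519). Both had also been higher in ectoderm cytoplasm than in nucleus. ZNF770 in ectoderm had 46.4, 51.2 and 41.8 CPM against 97.1, 96.6 and 88.6 (log2 change -1.02, SE 0.24, adjusted p = 0.00427), a call that TPM ended (-0.33).

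Between the 3 derived cell types, the members were more often higher in ectoderm cytoplasm than in the other cytoplasm libraries, and many calls of single members were lost when only transcripts shared by all assemblies were counted. Against endoderm 82 members were higher and 35 lower in ectoderm (72.1% of all genes called), and against mesoderm 57 and 32 (61.3%). Between endoderm and mesoderm 28 were higher and 61 lower in endoderm (54.5%). By direction, the shares of all genes higher and lower were 34.1% and 38%, 28.8% and 32.5%, and 28.8% and 25.7%, in the same order. Among the 83 KRAB members the endoderm-to-mesoderm split was 10 to 41, and for the 61 of them with shared transcripts it went from 9 and 25 to 5 and 11 on those transcripts (11 calls kept in direction, 21 lost, 2 opposite). Total counts as the scale gave 65 and 21 for ectoderm against mesoderm and 36 and 46 for endoderm against mesoderm. The 4 tables held 850 isoforms of the members in ectoderm, 595 in mesoderm, 562 in hPSC and 497 in endoderm, and no listed Ensembl transcript of 5, 11, 10 and 22 members. Only 118 members had a listed transcript that all 4 tables share, and 117 of these were tested in cytoplasm on those transcripts alone. For the same members the split then went from 55 and 28 to 41 and 20 for ectoderm against endoderm, with 38 calls kept in direction, 36 lost and 9 called in the opposite direction. It went from 37 and 26 to 35 and 20 for ectoderm against mesoderm (35 kept, 23 lost, 5 opposite) and from 22 and 38 to 14 and 20 for endoderm against mesoderm (24 kept, 33 lost, 3 opposite). The cell type and the assembly change together in the sums over all transcripts and cannot be told apart there.

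**Figure D3:**
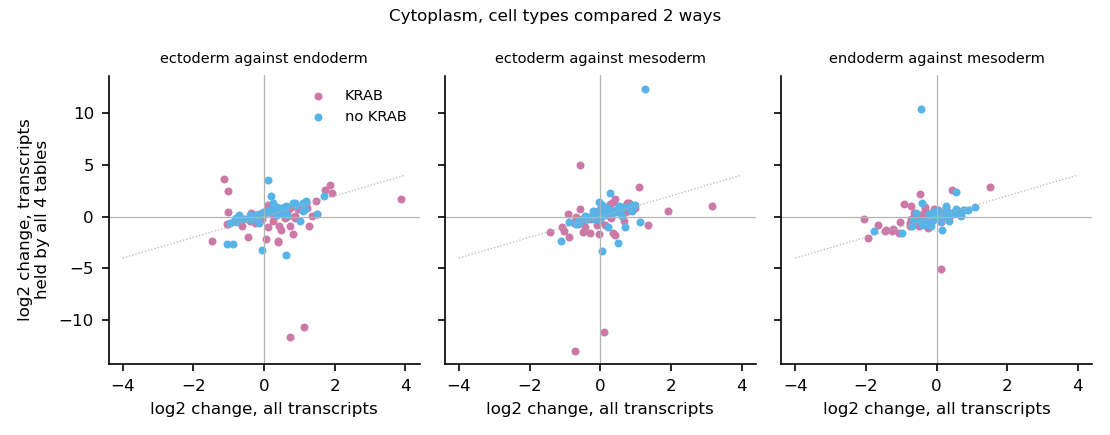
Log2 change between cell types in cytoplasm for each member, from the sum over all transcripts of its own assembly (x axis) and from the listed transcripts that all 4 assemblies hold (y axis). The dotted line marks equal values; points at the upper left and lower right changed direction.

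The widest gaps were members almost without counts in endoderm. ZNF850, a KRAB gene with 30 fingers, had 0 to 3 counts in each endoderm cytoplasm library, and was at least 156-fold higher in hPSC, 185-fold higher in ectoderm and 122-fold higher in mesoderm, taking a floor of 3 counts per library and CPM of the library total. ZNF107 had 0 to 2 counts there, at least 60.0-fold, 44.9-fold and 125-fold lower than in hPSC, ectoderm and mesoderm. ZNF135 had 0 counts in all 3 libraries, at least 55.5-fold, 39.6-fold and 46.2-fold lower. These genes passed the filter through the cell types where they are high, so they had to differ. The endoderm table held a single new isoform and no listed transcript of ZNF850, ZNF107, ZNF135, ZNF518A, ZNF248 and ZNF682, so their listed transcripts have no row there. ZNF518A had 121, 102 and 94.7 CPM in ectoderm, 50.2, 41.9 and 38 in mesoderm and 0.77, 0.5 and 0 in endoderm (CPM scaled over the 4 cell types). ZNF248, whose KRAB protein is among those with reported targets, had 54, 46.3 and 48.5 CPM in ectoderm and 1.43, 1.5 and 1.57 in endoderm.

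Other members differed between cell types with counts on both sides. ZNF395, which reads overlapping FBXO16 can also reach, had 9.09, 13 and 10.2 CPM in ectoderm, 38.3, 33.6 and 35.1 in endoderm and 69.8, 64.9 and 58.2 in mesoderm, without overlap (ectoderm against mesoderm: log2 change -2.58, SE 0.14, adjusted p = 8.55e-10), and no shared transcript. ZNF761, a KRAB gene, had 32, 31.3 and 26.3 CPM in ectoderm against 89.6, 85.8 and 74.3 in endoderm (log2 change -1.48, SE 0.12, adjusted p = 2.64e-08), and on shared transcripts its change was -2.34 (adjusted p = 0.034). ZNF778 is an example of the opposite: it had 13.1, 18.4 and 15.6 CPM in ectoderm against 33.3, 35.3 and 35.8 in endoderm (log2 change -1.14, SE 0.14, adjusted p = 4.26e-06), and 3.62 (adjusted p = 0.00102) on shared transcripts. ZNF721, a KRAB gene, had 62.6, 57.8 and 68.8 CPM in ectoderm against 5.85, 8.27 and 6.92 in mesoderm (log2 change 3.16, SE 0.17, adjusted p = 6.43e-10), with 0.99 (adjusted p = 0.00584) on shared transcripts. ZNF516, a member of the CtBP and LSD1 complex, had 172, 166 and 152 CPM against 46.1, 47.4 and 43.3 (log2 change 1.84, SE 0.18, adjusted p = 3.93e-07), and no shared transcript. ZNF708, a KRAB gene, had 21.1, 21.4 and 23.7 CPM in ectoderm against 53.5, 71.2 and 51.2 in mesoderm (log2 change -1.41, SE 0.19, adjusted p = 1.17e-05), with -1.48 (adjusted p = 0.000219) on shared transcripts. ZNF814 was lowest in mesoderm, at 5.98, 10.2 and 8.38 CPM, against 26.9, 30.7 and 34.8 in ectoderm and 21.3, 28.1 and 21.3 in endoderm, and neither call was kept on shared transcripts (0.54, adjusted p = 0.741 and 2.9, adjusted p = 0.0915). ZNF423, a cofactor of BMP-activated SMADs, had 76.4, 70.8 and 81.2 CPM in endoderm against 40.0, 33.3 and 33.3 in mesoderm (log2 change 1.10, SE 0.16, adjusted p = 4.83e-05), with 0.96 (adjusted p = 0.00249) on its 1 shared transcript. ZNF101 had 38.6, 36.4 and 31 CPM against 19.5, 20.1 and 17.3 (log2 change 0.90, SE 0.15, adjusted p = 0.000133) and no shared transcript.

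**Figure D4:**
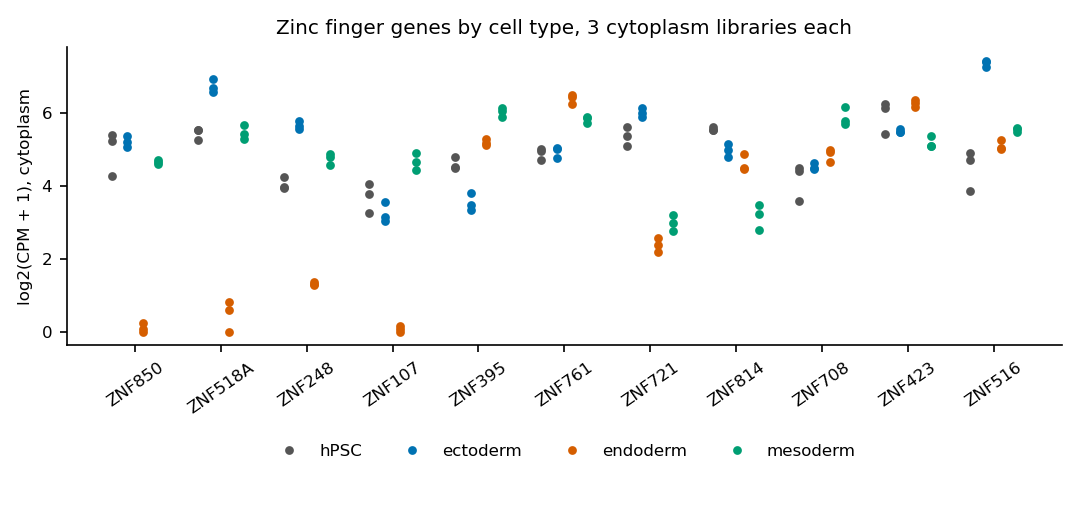
Log2(CPM + 1) in the 3 cytoplasm libraries of each cell type for 11 of the members named in the text for changes between cell types. Some members with wide gaps, such as ZNF33A, are not drawn. ZNF850, ZNF518A, ZNF248 and ZNF107 are near 0 or low in endoderm only, where the table lists no Ensembl transcript of them; the hPSC level was part of the rule that chose the members.

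On chromatin the split was again towards ectoderm, with 68 higher and 36 lower against endoderm (59.3% of all genes called) and 56 and 22 against mesoderm (49.0%), and even between endoderm and mesoderm at 34 and 33 (40.5%). Total counts gave 80 and 22, 70 and 11, and 28 and 37. Among all genes the shares higher and lower on chromatin were 30.5% and 28.8%, 23.4% and 25.6%, and 18.8% and 21.7%, in the same order. On shared transcripts the ectoderm-to-endoderm split of 118 members went from 44 and 25 to 34 and 30 (35 kept, 27 lost, 7 opposite), that of ectoderm to mesoderm from 38 and 19 to 33 and 21 (27, 26 and 4) and that of endoderm to mesoderm from 21 and 16 to 21 and 8 (13, 23 and 1). ZNF761 had 51.5, 61.2 and 49.9 CPM on ectoderm chromatin, 257, 229.7 and 304 on endoderm and 86.2, 127 and 67.9 on mesoderm chromatin, the highest level being in endoderm as in cytoplasm (log2 change -2.28, SE 0.29, adjusted p = 1.51e-05 for ectoderm against endoderm). Its endoderm-to-mesoderm change of 1.49 was 0.87 (adjusted p = 0.168) on its shared transcript. ZNF276 had 45.5, 38 and 48.5 CPM in ectoderm, 134, 102 and 146 in endoderm and 49.4, 61.6 and 38.1 in mesoderm (log2 change 1.36, SE 0.25, adjusted p = 0.000652 for endoderm against mesoderm). It had no shared transcript, and no listed one in endoderm. ZNF417 had 160.4, 163 and 164 CPM in ectoderm against 28.9, 48.5 and 37.4 in mesoderm (log2 change 2.08, SE 0.19, adjusted p = 1.07e-06), which includes reads it shares with ZNF587. ZNF417 had no shared transcript either. ZNF219, at 656, 638 and 710.4 CPM in ectoderm against 145, 154 and 87 in mesoderm (log2 change 2.38, SE 0.21, adjusted p = 8.3e-07), turned to -0.41 (adjusted p = 0.291) on its 2 shared transcripts. ZNF708 and ZNF75A were lower in ectoderm than in mesoderm (-2.44 and -1.65), with -2.14 and -3.38 on shared transcripts. ZNF202 was lower in ectoderm than in endoderm (log2 change -1.60, SE 0.18, adjusted p = 4.03e-06), and -0.67 (adjusted p = 0.108) on its shared transcript. ZNF814 had 6.06, 7.2 and 23.9 CPM in mesoderm, where the third library stood above the other 2, and 62, 54.4 and 60.2 in ectoderm (log2 change 2.22, SE 0.39, adjusted p = 0.000331). ZNF518A (3.95, 4.35 and 2.22 CPM), ZNF682 (3.06, 0.47 and 1.9 CPM) and ZNF850 (2.27, 0 and 2.11 CPM) were low on endoderm chromatin too, and ZNF107 was at least 90.9-fold lower there than in mesoderm and at least 12.8-fold lower than in ectoderm.

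The rule chose members by their hPSC level, so their differences from hPSC are given as a description. In cytoplasm 72 members were higher and 44 lower in ectoderm (76.0% of all genes called), 37 and 48 in endoderm (58.1%) and 60 and 39 in mesoderm (68.1%). In chromatin the counts were 70 and 35 (62.9%), 44 and 39 (61.9%) and 41 and 31 (54.6%). All 6 share the hPSC libraries of their fraction.

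Isoforms of 1 member could lie on different sides. The tables held between 1 and 28 isoforms of a member in hPSC, with a median of 2, and the submitters' notes name RSEM without saying how it shared reads among isoforms, so isoform values are less certain than sums. In hPSC 44 of 501 member isoforms were higher and 60 lower in cytoplasm (39.7% of all transcripts called). Isoforms listed by Ensembl were 33 higher and 21 lower of 261 and new isoforms 11 and 39 of 240. Among all transcripts, 28.9% of listed ones were higher and 18.1% lower, and 5.62% and 22.9% of new ones, so the lean of new isoforms towards the nucleus is one of the table as a whole. In endoderm listed isoforms of members split 53 to 13 of 230 and new ones 10 to 37 of 216 (42.1% of all transcripts called). In mesoderm they split 47 to 10 of 272 and 5 to 31 of 299 (32%). Of all listed transcripts 27.6% were higher and 19.1% lower in endoderm, and 25.6% and 11.7% in mesoderm. Of all new ones 7.6% were higher and 28.1% lower in endoderm, and 3.28% and 22.7% in mesoderm. In ectoderm they split 35 to 21 of 328 listed and 15 to 7 of 393 new isoforms (13.7%). The new ones thus differed in direction from the other cell types, which was not tested. Of all ectoderm transcripts, 9.62% of listed ones were higher and 11.3% lower, and 4.53% and 2.1% of new ones. The lean of new isoforms is again one of the table as a whole, while listed isoforms of members leaned the other way from all listed ones. Without single libraries the number of called member isoforms fell by more than 1.5 times in hPSC (68 without nucleus library 2), ectoderm (34 and 35 without cytoplasm library 1 or 3) and mesoderm (47, 55, 56, 50 and 60 without nucleus library 1 or 3 or cytoplasm library 1, 2 or 3).

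**Figure D5:**
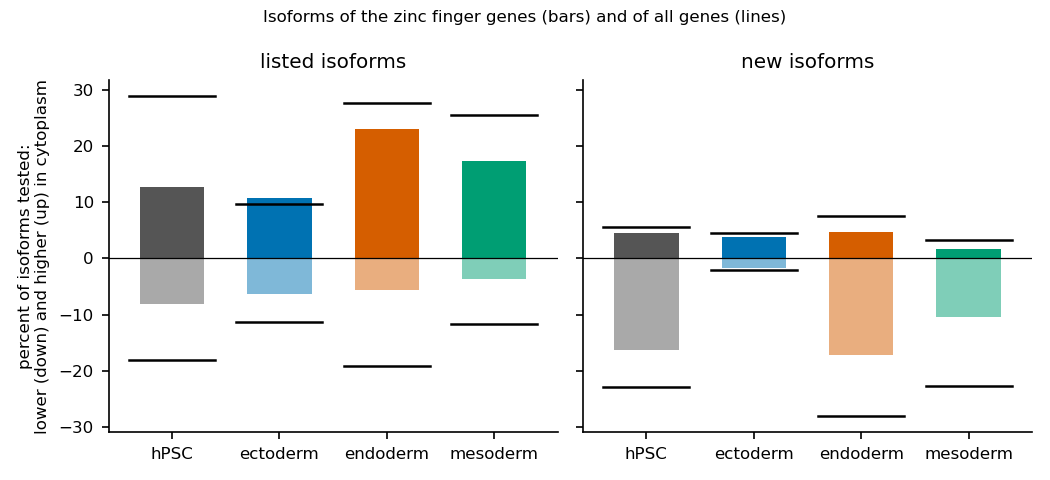
Percent of tested member isoforms called higher (up) and lower (down) in cytoplasm than in nucleus, for isoforms listed by Ensembl and for new isoforms, in each cell type. Bars are members and black lines all transcripts of the same class; new isoforms lie below 0 more often than above in hPSC, endoderm and mesoderm, for members as for all transcripts.

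Members with 1 isoform called higher and another called lower in cytoplasm numbered 11 in hPSC, 8 in mesoderm, 6 in endoderm and 0 in ectoderm. The widest gaps by the naming rule involved isoforms at or near 0 in 1 fraction. In hPSC a ZNF532 isoform was called higher on 1 library alone (0, 0 and 55.2 CPM in cytoplasm) and turned to a log2 change of -1.86, not called, without that library. The other ZNF532 isoform had 0 counts in every cytoplasm library and 70 to 169 in nucleus, at least 33.3-fold lower. For ZNF827 and ZNF7 in hPSC the isoforms called higher had at most 25 and 15 counts in cytoplasm and 0 in nucleus, and both calls were lost without most of the single libraries. In endoderm a new ZNF561 isoform was at least 20.5-fold higher in cytoplasm (40 to 113 counts against 0) and a listed ZNF875 isoform at least 15.8-fold (32 to 80 against 0), both losing their call without any 1 library. ZNF160 in endoderm had a new isoform with 24.5, 12.2 and 7.63 CPM in cytoplasm and 1.89, 0 and 0 in nucleus (log2 change 4.64, adjusted p = 0.0084) and another with 2.7, 2.7 and 1.96 CPM in cytoplasm and 8.56, 15.3 and 17.7 in nucleus (log2 change -2.49, adjusted p = 7.51e-05). The groups did not overlap for either. In mesoderm the listed ZNF384 isoform was at least 6.86-fold higher in cytoplasm, the new ZNF875 isoform at least 26.9-fold lower, and the listed ZNF644 isoform had 43.5, 43.1 and 52.8 CPM in cytoplasm and 13.3, 27.1 and 19.7 in nucleus (log2 change 1.22, adjusted p = 0.00814), beside a new one with 0.149, 0 and 0.375 CPM in cytoplasm and 1.85, 1.07 and 5.67 in nucleus (log2 change -4.0, adjusted p = 0.0303) that lost its call without 4 of the single libraries. With TPM the rises of the ZNF875 and ZNF644 isoforms in mesoderm turned to -0.25 and -0.10, not called. ZNF207 in hPSC, chosen after its values were seen because both isoforms are listed and well counted, had 1 isoform with 187, 166 and 168 CPM in cytoplasm and 90.7, 80.6 and 93 in nucleus (log2 change 0.98, adjusted p = 0.000172) and another with 62.2, 72.1 and 72.3 CPM in cytoplasm and 90.1, 119 and 99.5 in nucleus (log2 change -0.58, adjusted p = 0.0128). The fractions of neither overlapped by count, and the gene sum was higher in cytoplasm (0.31, adjusted p = 0.0388), a call lost without any 1 library (0.17 to 0.33) and with RLE scaling or DESeq2 (0.24 in both).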

How the data were processed

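RNA of 46 libraries was analysed in 16 groups. The authors deposited gene and isoform tables made separately for each cell type, with counts and TPM per transcript. STAR, RSEM and the hg38 build are named, with no versions, per the submitters' processing notes; whole-number counts may be rounded estimates. Transcripts were summed by Ensembl gene, and the 2.64% to 4.07% of counts on transcripts without a gene were left out. One ectoderm column matched no sample and was not used. The mesoderm nucleoplasm column is numbered 3 while the only such sample is titled repeat 1, and it was used by its group. edgeR 4.0.16 (R 4.3.3) quasi-likelihood fits used TMM scaling, filterByExpr with a minimum count of 10 and Benjamini-Hochberg adjustment over all genes tested, with an adjusted p under 0.05 as a call; fits between cell types used the 10701 genes in all 4 tables. Limma-trend (limma 3.58.1) tested log2(TPM + 1) of the deposited TPM, and DESeq2 1.42.0 the counts. The scripts were tested on simulated data. Named genes are the 3 largest rises and 3 largest falls per comparison with a mean of at least 5 CPM, the members called alike in all 4 cell types, list members and the widest opposite isoforms. The members and lists were chosen with earlier results of these data known. Other alternatives were RLE scaling, total counts, no filter, a replicate block, leaving out each library and, chosen after seeing the data, the listed transcripts that all 4 tables share and a count without ectoderm.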

Additional observations from a re-analysis of the deposited data

Results flagged for a closer look

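The cytoplasm-to-nucleus change of 18 named members differed from that in hPSC by an interaction test in edgeR at an adjusted p under 0.05, and the members were named for the size of this difference. In ectoderm the log2 differences were 2.65 for ZNF107, 2.59 for ZNF43, 2.26 for ZNF33A, -1.38 for ZNF581, -1.09 for ZNF691 and -1.03 for ZNF48. On shared transcripts ZNF43 (-6.11) and ZNF48 (0.10) lay on the other side of 0, neither called, and ZNF107 and ZNF33A had no shared transcript to check. The control genes of the ectoderm libraries lay against their labels, and the part of this was not tested. In endoderm the log2 differences were 2.15 for ZNF813, 2.00 for ZNF268, 1.88 for ZNF770, -1.95 for ZNF783 and -1.64 for ZNF775. Of these, ZNF268 was not called on shared transcripts (1.94), and ZNF783 and ZNF775 had no shared transcript to check. ZNF135 had a fitted difference of -6.32 in endoderm, which depends on the prior count because its endoderm cytoplasm libraries held 0 counts. In mesoderm they were 1.39 for ZNF358, 1.35 for ZNF738, 1.17 for ZNF677, -1.56 for ZNF326, -1.43 for ZNF638 and -1.29 for ZNF644. The calls of ZNF738 and ZNF677 were lost with total counts (1.02 and 0.84) and on shared transcripts (0.45 and 0.68). Those of ZNF326 and ZNF638 were also lost on shared transcripts (-1.41 and -1.09), and without hPSC nucleus library 1 or 3, hPSC cytoplasm library 2, mesoderm nucleus library 1 or 3 or any 1 mesoderm cytoplasm library (-1.59 to -1.44 for ZNF326 and -1.44 to -1.32 for ZNF638). That of ZNF638 was also lost without hPSC cytoplasm library 3 (-1.40) and with the replicate block (-1.44). ZNF644 had no shared transcript to check.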

How the results depend on the processing

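Of the recomputed counts of called members, 229 were within 1.5 times the value reported and 31 were not. Without ectoderm 16 members in place of 4 were lower in cytoplasm in every cell type, and 17 in place of 12 higher. With TPM the counts were 110 for hPSC, 107 for ectoderm and 85 for endoderm chromatin against nucleoplasm, 69 for ectoderm and 122 for mesoderm cytoplasm against nucleus and 172 for mesoderm isoforms. Total counts gave 86 for endoderm chromatin against nucleoplasm, and DESeq2 gave 156 ectoderm isoforms. Shared transcripts gave 61, 55 and 34 in cytoplasm (ectoderm against endoderm, ectoderm against mesoderm, endoderm against mesoderm), 64 and 29 on chromatin (the first and last of these) and 39 and 18 for the ectoderm and endoderm interactions; fewer transcripts and members were tested there. Without 1 library the counts ran from 19 to 43 for hPSC chromatin against nucleoplasm, 37 to 72 and 11 to 20 for the endoderm and mesoderm interactions, and 68 to 97, 34 to 85 and 47 to 67 for hPSC, ectoderm and mesoderm isoforms. Replicate numbers were not used as pairs, since no comparison had every correlation of same-numbered libraries over 0.1 (-0.38 to 0.22 for cytoplasm against nucleus). With 3 libraries per group this check cannot exclude pairing. In ectoderm chromatin and nucleoplasm 6 of 6 libraries correlated best with their own number (0.04 to 0.09), a hint from the data and not from the design. The replicate block moved only the count of mesoderm isoforms, to 59, by more than 1.5 times. Of the recomputed values of named results, 2424 were the same, 216 were weaker and 21 changed direction. The causes were not tested. The changes of direction were as follows. On shared transcripts ZNF778 went to 3.62, ZNF219 to -0.41, ZNF43 to -6.11 and ZNF48 to 0.10. With TPM mesoderm values went to -0.06 for ZNF253, -0.16 for ZNF616, -0.30 for ZNF766, -0.40 for ZNF93, -0.44 for ZNF644, -0.40 for ZNF43, -0.16 for ZNF268, -0.69 for ZNF770, -0.31 for ZNF286A and -0.11 for ZNF134, and hPSC values to -0.06 for ZNF286A and -0.04 for ZNF134. With TPM the mesoderm isoforms of ZNF875 and ZNF644 went to -0.25 and -0.10. With total counts endoderm values went to 0.23 for ZNF445 and 0.21 for ZNF827, and without hPSC cytoplasm library 3 the ZNF532 isoform went to -1.86. Isoforms and members under the floor of 3 counts are limited by depth.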
